A study of Homo sapiens with 6 samples.

Results

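The tripartite motif (TRIM) family of ubiquitin ligases was followed in EndoC-βH1 cells, a human beta cell line, with and without inflammatory cytokines. Members were all genes whose symbol is TRIM followed by a number and at most 1 letter. The rule found 73 genes in 71 loci, of 61695 loci in all. Of the 6 libraries, 3 held RNA of cells treated over 24 h with a mix of IL-17 (100 ng/ml), IFN-γ (50 ng/ml), TNF-α (10 ng/ml) and IL-1β (5 ng/ml), and 3 held RNA of control cells without that mix. All 6 were grown in serum-free medium with 11 mM glucose on a Matrigel-fibronectin matrix and had adhered for 24 h before cytokines were added. EndoC-βH1 is a single line made from fetal pancreas with a viral oncogene under the insulin promoter and with telomerase. The labels do not say whether the libraries of 1 group are separate cultures, and a p-value here reflects no more than how these libraries vary, which may be technical. The sample labels place control cells ahead of the exposure, whereas the extraction text has them 24 h without cytokines, so cytokines and time in culture cannot be told apart here.

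TRIM proteins usually carry a RING domain, which passes ubiquitin from an E2 enzyme to a target, followed by B-box and coiled-coil domains and a C-terminal part that sets what the protein binds. Many members with a SPRY domain at that end act in innate immunity, where they bind viral capsids or attach ubiquitin to sensors of viral RNA, and several are induced by interferons. Others read chromatin through a PHD finger and bromodomain, bind microtubules through a COS box, or sit in membranes of the endoplasmic reticulum. In beta cells, IFN-γ together with IL-1β and TNF-α is the classical laboratory model of insulitis, the immune attack on islets in type 1 diabetes.

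The comparison asks which transcripts differ between beta cells with and without the cocktail. The files give the authors' comparison tables, not values per library, so the error of each value is the authors' standard error and no sample can be shown on its own. A library held 40882000 normalized counts on average, and members made up 0.248% of them. Markers of beta cells stood above 1 FPKM (fragments per kilobase of transcript, scaled to sequencing depth) for 7 of 9 genes in both groups in the authors' deposited transcript table, and the other 2, INS and CHGA, were listed at 0 there although their loci held 38102 and 296413 normalized counts in cytokine libraries, against 56569 and 136426 in control libraries. Of 6 leukocyte markers, 1 passed 1 FPKM, their summed level was 1.29 FPKM in cytokine and 1.37 FPKM in control cells, and CD3E was at 0 in both. The sum over 4 endothelial and stromal markers was 7.58 FPKM with cytokines and 3.25 FPKM in control cells, with COL1A1 the 1 marker above 1 FPKM. Duct and acinar markers summed to 87.6 FPKM with cytokines and 82.5 FPKM in control cells over 4 genes, and markers of other islet cells to 4.45 FPKM with cytokines and 3.68 FPKM in control cells over 4 genes. The part of other cell types in the results on TRIM genes was not tested.

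Of the 71 TRIM loci, 52, which hold 54 genes, were tested. No read fell in 8, and 11 had too few reads to be given an adjusted p. The untested loci with reads averaged at most 1.33 normalized counts, and the tested ones 2.37 to 21675. With cytokines 21 of the 52 tested loci rose and 8 fell at an adjusted p under 0.05 in the authors' deposited DESeq table, and 23 did not pass. These are 40.4% and 15.4% of the tested TRIM loci, where 18.0% of all 30206 tested loci rose and 19.7% fell. In either direction 55.8% of TRIM loci passed, against 37.7% of all tested loci. The asymmetry was larger for big changes. At 2-fold or more, 12 TRIM loci rose, or 23.1%, and 1 fell, or 1.92%, while 6.53% of all tested loci rose and 3.27% fell by that much. The median log2 fold change was 0.14 over the tested TRIM loci and 0.05 over all tested loci. It was -0.06 over tested loci of at least 1000 counts. The median of the tested TRIM loci in normalized counts was 987, and the shares over all tested loci are not matched for counts. Well-counted loci can pass at small changes, such as TRIM23 at -0.14. The part of read depth in these shares was not tested.

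**Figure D1:**
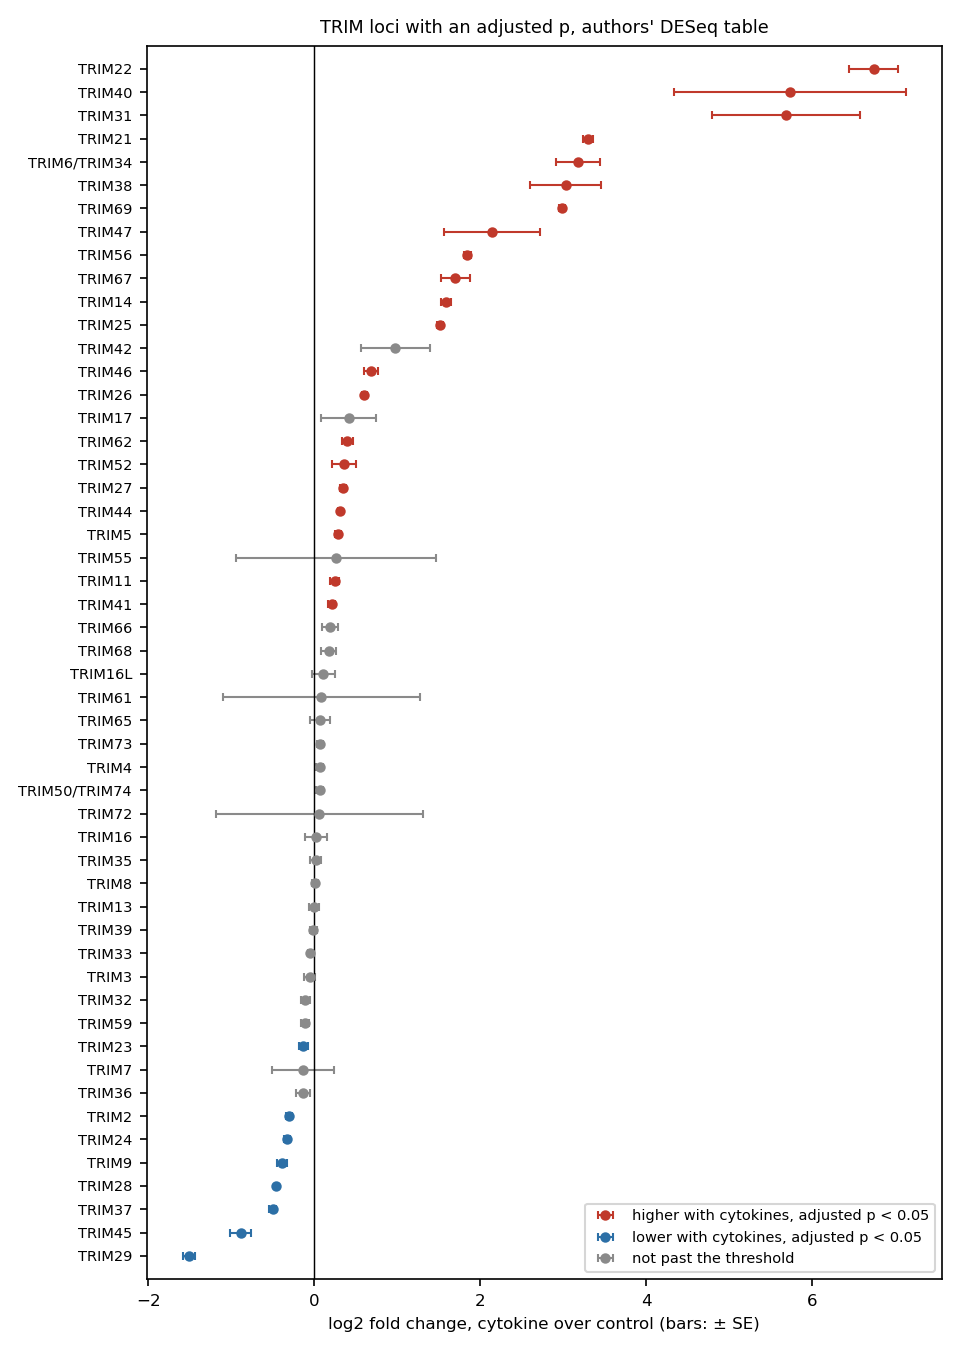
The log2 fold change of cytokine over control, with its SE as bars, is plotted for the 52 TRIM loci with an adjusted p in the authors' deposited DESeq table. The 12 loci at the top that rose by 2-fold or more spread from 1.52 to 6.75, while 1 locus, TRIM29, lies below -1 at the bottom.

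Many of the members that rose most are known for acting against viruses. TRIM22, an interferon-induced restriction factor of several viruses, averaged 888 normalized counts in cytokine libraries and 8.27 in control libraries. Its log2 fold change in the authors' deposited DESeq table was 6.75 ± 0.29 (SE; 3 libraries a group, here and below), with an adjusted p of 2.21e-115. Control cells thus held only a few reads per library. The locus also holds OR56B1, an olfactory receptor gene. TRIM21, the cytosolic antibody receptor that targets antibody-coated viruses to the proteasome, averaged 3704 normalized counts with cytokines and 375 in control cells. Its log2 fold change of 3.30 ± 0.06 in the authors' deposited DESeq table had an adjusted p listed as 0. In these bulk libraries a change in the number of cells with a transcript and a change in its level per cell cannot be told apart.

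TRIM6 and TRIM34 share 1 locus. TRIM34 binds retroviral capsids, and TRIM6 builds free ubiquitin chains that act on the kinase IKKε. The locus averaged 153 normalized counts with cytokines and 16.8 in control cells, a log2 fold change of 3.18 ± 0.26 in the authors' deposited DESeq table (adjusted p = 1.48e-32). The authors' deposited transcript table separates them. TRIM34 stood at 1.26 FPKM with cytokines and 0.0261 FPKM in control cells, and TRIM6 at 0.0723 FPKM with cytokines and 0.0366 FPKM in control cells. Most of the cytokine-treated signal of that locus was therefore assigned to TRIM34 transcripts, although no single transcript of either gene passed the test, the leading TRIM34-201 having 0.989 FPKM with cytokines, 0.00504 FPKM in control cells and q = 0.561.

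TRIM69, which restricts a rhabdovirus, was second to TRIM28 in FPKM with cytokines. In counts it averaged 9691 normalized counts in cytokine libraries and 1224 in control libraries, a log2 fold change of 2.99 ± 0.04 in the authors' deposited DESeq table with an adjusted p listed as 0. TRIM38, a feedback regulator of Toll-like receptor and TNF signalling, had far fewer reads. It averaged 59.9 normalized counts with cytokines and 7.33 in control cells, with a log2 fold change of 3.03 ± 0.43 and an adjusted p of 7.02e-12 in the authors' deposited DESeq table. The estimates for TRIM69, TRIM38 and the TRIM6/TRIM34 locus lie within 1 SE of TRIM38 of each other.

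Several regulators of RNA and DNA sensing rose too, though they do not follow each other by size of change. TRIM56, which binds RNA and acts in signalling by the DNA sensor adaptor STING, averaged 4232 normalized counts with cytokines and 1177 in control cells (log2 fold change 1.85 ± 0.04, adjusted p listed as 0 in the authors' deposited DESeq table). TRIM14, an adaptor at mitochondria that joins the MAVS complex and lacks a RING domain, averaged 1791 normalized counts with cytokines and 596 in control cells. Its log2 fold change was 1.59 ± 0.06, with an adjusted p of 4.85e-163 in the authors' deposited DESeq table. TRIM25, the ligase that attaches ubiquitin to the RNA sensor RIG-I, averaged 6078 normalized counts with cytokines and 2123 in control cells. Its log2 fold change in the authors' deposited DESeq table was 1.52 ± 0.03 (adjusted p listed as 0), and its locus also holds the microRNA gene MIR3614. TRIM26, linked to turnover of IRF3 and to TAB1, averaged 4916 normalized counts with cytokines and 3240 in control cells, a smaller log2 fold change of 0.60 ± 0.03 (adjusted p = 2.08e-77 in the authors' deposited DESeq table). The member of the antiviral list that did not pass was TRIM65, a ligase for the RNA sensor MDA5, with 271 normalized counts with cytokines, 258 in control cells and a log2 fold change of 0.07 ± 0.12 (adjusted p = 0.734) in the authors' deposited DESeq table.

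In the list of antiviral and innate immune TRIM genes, 10 of 11 tested loci rose and none fell. Their median log2 fold change was 1.85 in the authors' deposited DESeq table, against 0.05 over all tested loci. The list was chosen with earlier results of these data known, and it does not hold every member with a role in innate signalling. TRIM8, which did not pass, and TRIM31, which rose, are not on it. Of the 11 loci, those with 1 symbol gave 6 of the 10 calls. On the short arm of chromosome 6, in and near the major histocompatibility complex, 5 of 6 tested TRIM loci rose (TRIM26, TRIM27, TRIM31, TRIM38 and TRIM40) and none fell, with a median of 1.82. All 3 loci of the TRIM5 cluster on chromosome 11 rose, with a median of 3.18, and each holds several symbols. These 3 loci are also among the 11 of the antiviral list, as are TRIM26 and TRIM38. The counts of the 3 lists are therefore not independent of each other. Beside the counts of these lists, 18.0% of all tested loci rose and 19.7% fell.

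TRIM31, which aids aggregation of MAVS, and TRIM40, described in the gut epithelium, were at the edge of detection in control cells. TRIM31 averaged 49.3 normalized counts with cytokines and 0.956 in control cells, a log2 fold change of 5.69 ± 0.89 with a 95% interval of 3.94 to 7.44 (adjusted p = 9.41e-10 in the authors' deposited DESeq table). TRIM40 averaged 9.25 normalized counts with cytokines and 0.174 in control cells, a log2 fold change of 5.73 ± 1.40 with a 95% interval of 2.99 to 8.48 (adjusted p = 0.00016 in the authors' deposited DESeq table). Both control means lie below 1 normalized count per library, so both folds rest on very few control reads. TRIM31 lies opposite TRIM31-AS1, whose own locus averaged 1.60 normalized counts with cytokines and 0.161 in control cells, with no adjusted p. The library kit marks strand, but the sources used here do not give the strand setting of the counting.

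TRIM67 and TRIM46, both microtubule-binding members with a COS box, rose as well. TRIM46 organizes microtubules at the start of axons. It averaged 803 normalized counts with cytokines and 500 in control cells (log2 fold change 0.68 ± 0.08, adjusted p = 3.84e-17 in the authors' deposited DESeq table). TRIM67, studied in mouse neurons with its relative TRIM9, averaged 206 normalized counts with cytokines and 63.2 in control cells. Its log2 fold change was 1.70 ± 0.17 (adjusted p = 1.73e-22) in the authors' deposited DESeq table, and the authors' Cuffdiff gene table gave the other direction. TRIM47 averaged 21.0 normalized counts with cytokines and 4.75 in control cells, with a log2 fold change of 2.14 ± 0.58 and an adjusted p of 0.000753 in the authors' deposited DESeq table. Among all COS-box members 2 of 6 tested loci rose, 1 (TRIM9) fell and 3 did not pass, where 18.0% of all tested loci rose and 19.7% fell. TRIM42, just outside the threshold, had 28 normalized counts with cytokines and 14.2 in control cells, a log2 fold change of 0.98 ± 0.42 and an adjusted p of 0.0505 in the authors' deposited DESeq table.

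The other 7 loci that rose did so by less than 0.5 on the log2 scale, with log2 fold changes of 0.40 for TRIM62, 0.35 for TRIM52, 0.35 for TRIM27, 0.31 for TRIM44, 0.28 for the TRIM5 locus, 0.25 for TRIM11 and 0.21 for TRIM41 in the authors' deposited DESeq table. TRIM44, which lacks a RING domain and carries a zinc finger of ubiquitin proteases, was the second most counted member. It averaged 11556 normalized counts with cytokines and 9316 in control cells (log2 fold change 0.31 ± 0.02, adjusted p = 3.01e-36 in the authors' deposited DESeq table). TRIM27, a SPRY-domain ligase also called RFP, averaged 3806 normalized counts with cytokines and 2990 in control cells (log2 fold change 0.35 ± 0.04, adjusted p = 1.42e-21 in the authors' deposited DESeq table).

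**Figure D2:**
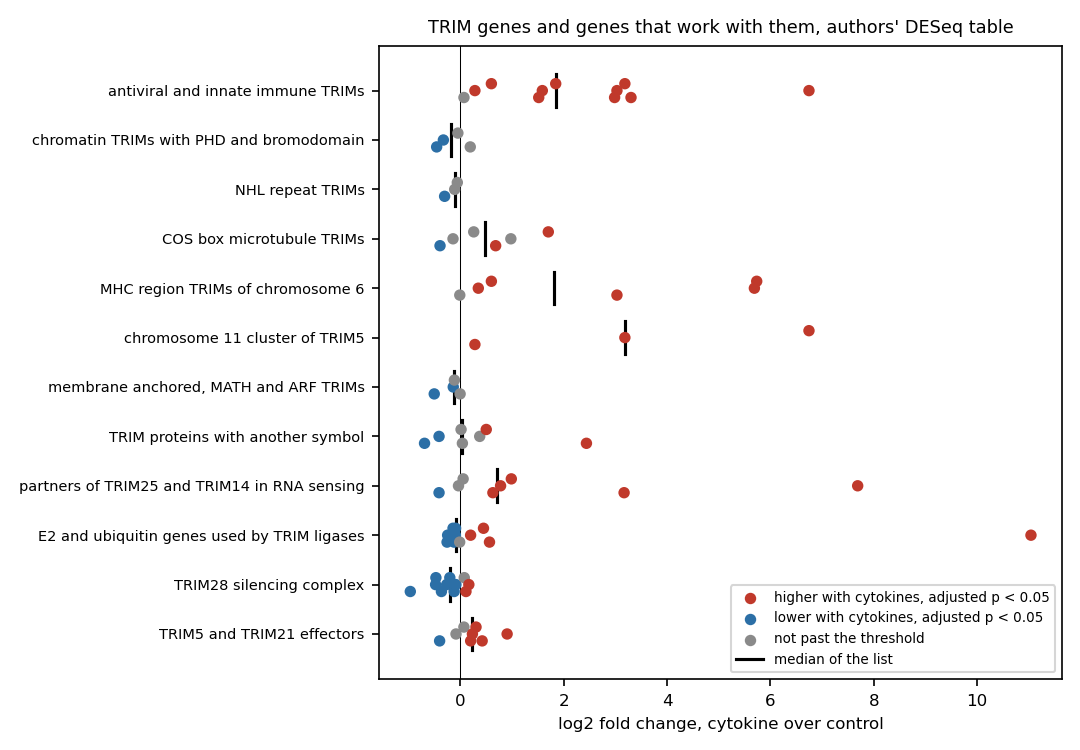
Each point is the log2 fold change of cytokine over control of 1 tested locus in the authors' deposited DESeq table, arranged by list, with the list's median as a black line. The antiviral list has its median at 1.85 and the chromosome 11 cluster at 3.18, while the medians of the chromatin, NHL and membrane lists lie slightly below 0. Some loci appear in more than 1 list, and all loci of the chromosome 11 cluster are also in the antiviral list.

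Fewer members fell, and most by little. TRIM29, a member without a RING domain that is typical of stratified epithelia, fell to 371 normalized counts with cytokines, against 1057 in control cells. Its log2 fold change was -1.51 ± 0.08 in the authors' deposited DESeq table (adjusted p = 1.13e-88), and it was the 1 member that fell by 2-fold or more. TRIM45 averaged 181 normalized counts with cytokines and 335 in control cells, a log2 fold change of -0.89 ± 0.13 (adjusted p = 1.15e-11 in the authors' deposited DESeq table). TRIM37, a ligase of peroxisomes and centrioles that is mutated in mulibrey nanism, averaged 2210 normalized counts with cytokines and 3135 in control cells (log2 fold change -0.50 ± 0.04, adjusted p = 4.81e-36 in the authors' deposited DESeq table). The remaining falls were TRIM9 at -0.39, TRIM2 at -0.30 and TRIM23 at -0.14 in log2 fold change, together with TRIM28 and TRIM24.

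TRIM28, also called KAP1, is the corepressor that KRAB zinc finger proteins bring to DNA, and it was the most abundant member on every scale. It averaged 18267 normalized counts with cytokines and 25083 in control cells, a log2 fold change of -0.46 ± 0.02 (adjusted p = 2.44e-129 in the authors' deposited DESeq table), in a locus that also holds the microRNA gene MIR6807. TRIM24, a reader of histone marks and a nuclear receptor cofactor, averaged 4206 normalized counts with cytokines and 5278 in control cells (log2 fold change -0.33 ± 0.03, adjusted p = 1.37e-23 in the authors' deposited DESeq table). TRIM33, its close relative in SMAD signalling, had 4544 normalized counts with cytokines and 4694 in control cells, a log2 fold change of -0.05 ± 0.03 and an adjusted p of 0.289 in the authors' deposited DESeq table. Of the 4 chromatin members 2 fell and 2, TRIM33 and TRIM66, did not pass. In the NHL-repeat list 1 of 3 tested loci fell, TRIM2, a ligase for neurofilament in mice, with 2603 normalized counts with cytokines and 3213 in control cells (log2 fold change -0.30 ± 0.04, adjusted p = 1.15e-13 in the authors' deposited DESeq table). TRIM3 and TRIM32 did not pass, and TRIM71, a regulator of stem cell mRNAs, had too few reads for an adjusted p. In the list of members with a membrane anchor, a MATH domain or an ARF domain, TRIM37 and TRIM23 fell, and TRIM13 and TRIM59 did not pass. Beside the counts of the chromatin, NHL-repeat and membrane lists, 19.7% of all tested loci fell and 18.0% rose.

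For the 17 loci that did not pass and held at least 100 counts, log2 fold changes ran from -0.14 to 0.19, and their 95% intervals from -0.30 to 0.39 in the authors' deposited DESeq table. Changes of more than about 0.39 in either direction therefore lie outside the interval of each of these loci. TRIM8, a regulator of TNF and IL-1 signalling through TAK1, is among them with 2540 normalized counts with cytokines and 2524 in control cells (log2 fold change 0.01 ± 0.04, adjusted p = 0.911 in the authors' deposited DESeq table). So is the locus of TRIM73, with 2976 normalized counts with cytokines and 2840 in control cells (0.07 ± 0.04, adjusted p = 0.146 in the authors' deposited DESeq table), although transcripts of TRIM73 itself held only 2.92% of that locus in FPKM with cytokines and 0.115% in control cells. The muscle ligases TRIM54, TRIM55 and TRIM63, the muscle membrane repair protein TRIM72 and the primate-expanded TRIM43, TRIM49 and TRIM64 families averaged under 3 normalized counts or had no read in either group. TRIM43, TRIM49 and TRIM64 have near-identical copies among which reads may be split or lost.

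Levels per length give another order of the family. In the authors' deposited transcript table, FPKM summed over a gene's own transcripts was usable for 67 members, and the other 6, all on chromosome 6 (TRIM10, TRIM15, TRIM26, TRIM31, TRIM39 and TRIM40), carry the status of too much data. At 1 FPKM or more stood 36 members with cytokines and 33 in control cells. TRIM28 led in both groups at 189 FPKM with cytokines and 241 FPKM in control cells, and made up 27.8% of the family's summed FPKM with cytokines and 43.6% in control cells. Behind TRIM28 came TRIM69, TRIM21, TRIM44 and TRIM25 with cytokines, at 95.8, 45.2, 44.6 and 35.9 FPKM. In control cells the next were TRIM44, TRIM8, TRIM27 and TRIM24, at 37.1, 25.1, 24.7 and 19.5 FPKM. TRIM69 held rank 2 with cytokines and rank 9 in control cells, and TRIM21 rank 3 with cytokines and rank 21 in control cells. TRIM25 held rank 5 with cytokines and rank 12 in control cells, and TRIM29 rank 30 with cytokines and rank 16 in control cells. The table gives 1 FPKM per group with no spread, so close neighbours such as TRIM21 and TRIM44 with cytokines cannot be put in order.

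**Figure D3:**
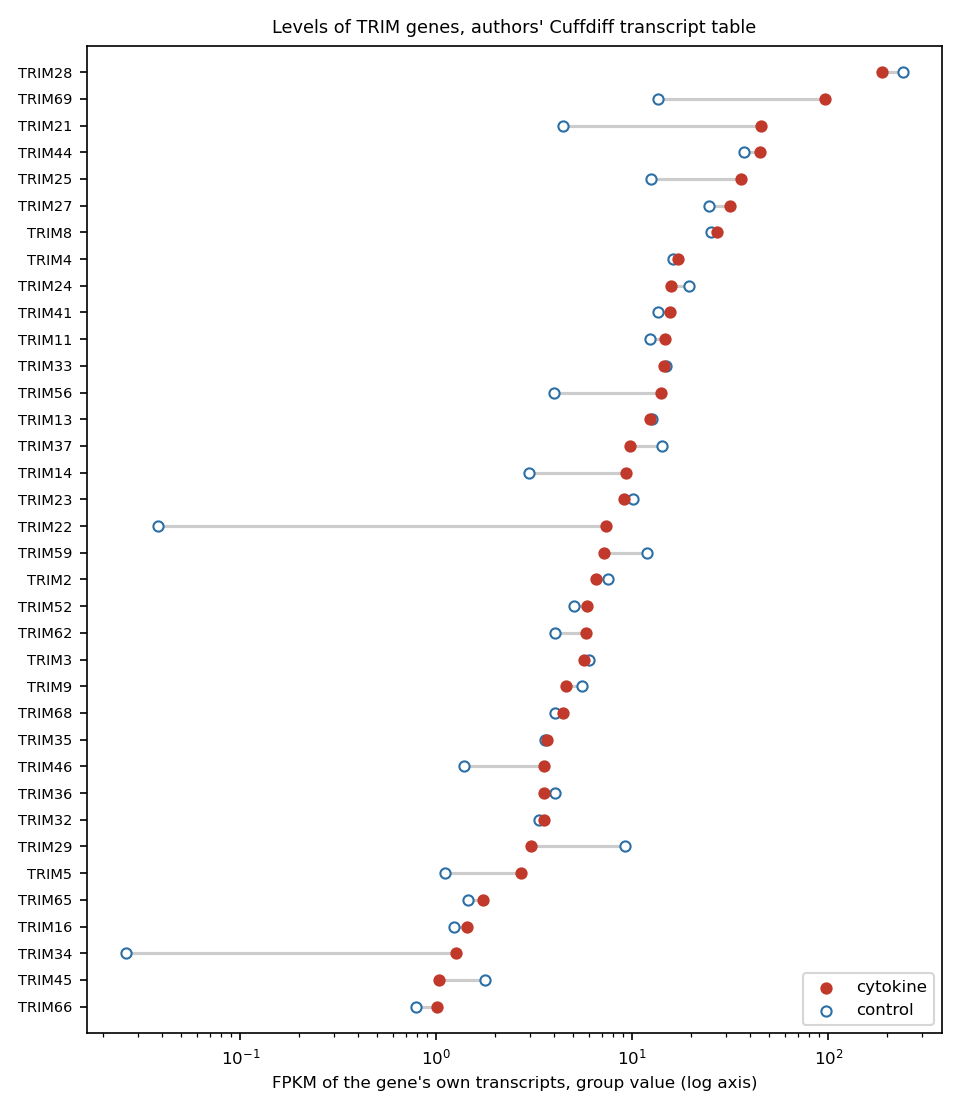
FPKM of each TRIM gene's own transcripts, on a log axis, is shown for cytokine cells (filled) and control cells (open), for genes at 1 FPKM or more in at least 1 group. TRIM69, TRIM21, TRIM25, TRIM56, TRIM22 and TRIM34 lie far to the right of their control values, and TRIM29 to the left of its own.

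Transcripts show where a locus value hides what its TRIM gene does. Of 443 transcripts of members in the authors' deposited transcript table, 142 were tested, and 15 rose and 7 fell at q under 0.05. These are 10.6% and 4.93% of the tested TRIM transcripts, where 5.17% of all tested transcripts rose and 4.70% fell. The 22 calls lie in 18 of the 41 genes with a tested transcript. Of 39 genes at 0.1 FPKM or more in both groups, 36 had 1 leading transcript common to both groups, and the exceptions were TRIM17, TRIM46 and TRIM47. For TRIM46, the coding TRIM46-201 led with cytokines at 2.14 FPKM, against 0.492 FPKM in control cells (q = 0.253), and TRIM46-207, which has no defined coding sequence, led in control cells at 0.525 FPKM, against 1.16 FPKM with cytokines (q = 0.0712).

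Most of the TRIM69 signal lay in transcripts without a defined coding sequence. TRIM69-207 stood at 74.9 FPKM with cytokines and 8.81 FPKM in control cells (q = 0.000833 in the authors' deposited transcript table), which is 78.2% of the gene's FPKM with cytokines and 64.9% in control cells. TRIM69-205, also without a defined coding sequence, had 16.3 FPKM with cytokines and 4.13 FPKM in control cells (q = 0.0165). The transcripts annotated as coding summed to 2.89 FPKM with cytokines and 0.308 FPKM in control cells, and the leading coding TRIM69-201, at 1.66 FPKM with cytokines and 0.223 FPKM in control cells, did not pass (q = 0.235). The FPKM of TRIM69 in that table is thus mostly assigned to transcripts for which release 44 of GENCODE gives no protein, and the counts of the locus are not divided by transcript. In that annotation of hg38, TRIM69-207 spans chr15:44729001-44734000 on the plus strand within TRIM69 (chr15:44728988-44767829). B2M, the light chain of HLA class I, ends 10136 bases before TRIM69 on the same strand, and it averaged 178600 normalized counts with cytokines and 10560 in control cells (log2 fold change 4.08 ± 0.02 in the authors' deposited DESeq table). The part of B2M in the TRIM69 signal was not tested.

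**Figure D4:**
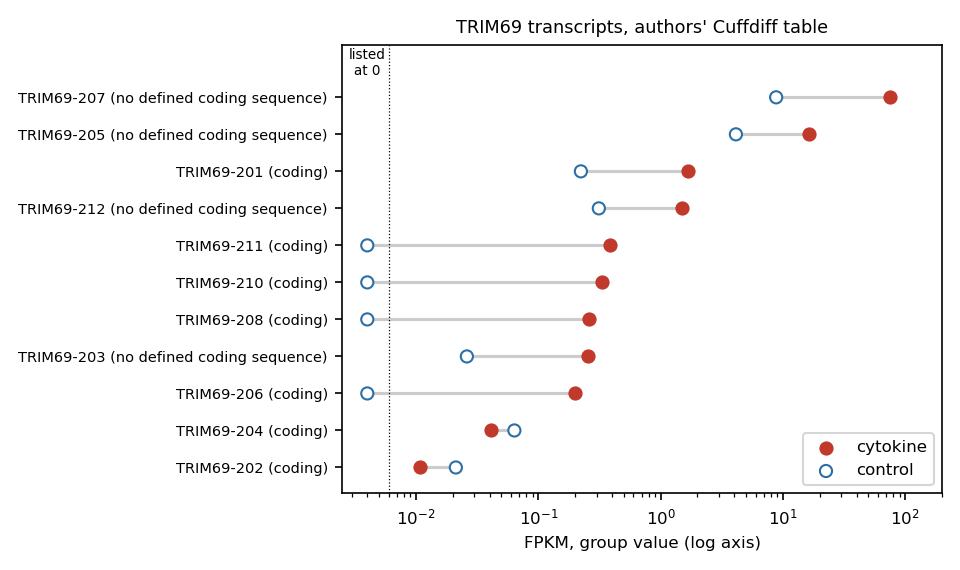
FPKM of the annotated TRIM69 transcripts above 0 in either group, on a log axis, is shown for cytokine cells (filled) and control cells (open), with values listed at 0 placed left of the dotted line. TRIM69-207 and TRIM69-205, without a defined coding sequence, lie at 74.9 and 16.3 FPKM with cytokines, and the highest coding transcript at 1.66 FPKM.

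For TRIM5, which blocks incoming retroviruses by binding their capsids, the locus holds 11 symbols, globin genes among them. The locus rose by only 0.28 ± 0.04 on the log2 scale, with 2716 normalized counts with cytokines and 2233 in control cells (adjusted p = 2.32e-12 in the authors' deposited DESeq table). TRIM5's own transcripts summed to 2.72 FPKM with cytokines and 1.10 FPKM in control cells, 11.4% of the locus with cytokines and 6.33% in control cells in the authors' deposited transcript table. Its transcript TRIM5-203 had 0.637 FPKM with cytokines and 0.156 FPKM in control cells and passed at q = 0.0432. TRIM59 showed the same in the other direction. Its locus, shared with IFT80, did not pass (1852 normalized counts with cytokines, 2004 in control cells, log2 fold change -0.11 ± 0.05, adjusted p = 0.0505 in the authors' deposited DESeq table). TRIM59-201, its leading transcript, fell to 5.88 FPKM with cytokines, against 9.59 FPKM in control cells (q = 0.00232).

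TRIM67 is where the authors' tables part. Its annotated transcript TRIM67-202 rose, at 0.473 FPKM with cytokines and 0.135 FPKM in control cells (q = 0.000833), the direction of the DESeq table. The gene-level value in the authors' deposited Cuffdiff table was 0.567 FPKM with cytokines and 0.892 FPKM in control cells, a log2 fold change of -0.65 (q = 0.441). An assembled transcript of that locus with no gene name was listed at 0 FPKM with cytokines and 0.739 FPKM in control cells, and carries no test. TRIM67 lies opposite TRIM67-AS1. The increase of TRIM67 thus rests on the DESeq table and on 1 annotated transcript.

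TRIM56, TRIM24 and TRIM32 also have assembled transcripts without a gene name in their loci, chosen here after their values were seen. For TRIM56 such a transcript had 14.2 FPKM with cytokines and 2.75 FPKM in control cells (q = 0.000833 in the authors' deposited transcript table), as much as the 12.2 FPKM with cytokines and 3.52 FPKM in control cells of the coding TRIM56-201, which also rose (q = 0.000833). In the TRIM24 locus 1 fell, at 4.58 FPKM with cytokines and 6.49 FPKM in control cells (q = 0.0175). None of the 4 tested annotated transcripts of TRIM24 passed. In the TRIM32 locus 1 fell, at 1.45 FPKM with cytokines and 3.89 FPKM in control cells (q = 0.000833), while another had 2.30 FPKM with cytokines and 0.452 FPKM in control cells (q = 0.639), and the locus as a whole did not pass.

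Several leading coding transcripts moved with their loci. TRIM21-201 had 44.9 FPKM with cytokines and 4.42 FPKM in control cells, TRIM25-201 had 29.4 FPKM with cytokines and 9.73 FPKM in control cells, and TRIM14-201 had 8.85 FPKM with cytokines and 2.81 FPKM in control cells, each at q = 0.000833 in the authors' deposited transcript table. TRIM28-201 fell, with 117 FPKM with cytokines and 165 FPKM in control cells, as did TRIM29-201, with 2.24 FPKM with cytokines and 5.60 FPKM in control cells (q = 0.000833 for both). TRIM2, TRIM23 and TRIM24, whose loci fell, had leading transcripts that did not pass. For TRIM2 it had 4.20 FPKM with cytokines and 3.84 FPKM in control cells (q = 0.766). For TRIM24 it had 11.3 FPKM with cytokines and 12.1 FPKM in control cells (q = 0.731). Among loci that rose, the leading transcripts of TRIM41 (q = 0.479), TRIM52 (q = 0.856) and TRIM44 (q = 0.894) did not pass either, although another TRIM44 transcript did (q = 0.000833). For TRIM22 no transcript passed although the gene did (q = 0.000232). Its leading TRIM22-201 was listed at 4.82 FPKM with cytokines and 0.0073 FPKM in control cells (q = 0.647). TRIM22 and TRIM5 overlap on opposite strands in GENCODE.

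The authors' Cuffdiff gene table tested 43 TRIM loci and called 14 higher and 7 lower, where 17.8% of its tested loci were higher and 17.9% lower. Of these, 20 were called in both tables, all in 1 direction. Among loci tested in both, TRIM2, TRIM23, TRIM44, TRIM52 and TRIM67 passed only in the DESeq table. TRIM59 passed only in the Cuffdiff table (log2 fold change -0.34, q = 0.0319). TRIM26, TRIM31, TRIM38 and TRIM40, which rose in the DESeq table, had no test in the Cuffdiff table.

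**Figure D5:**
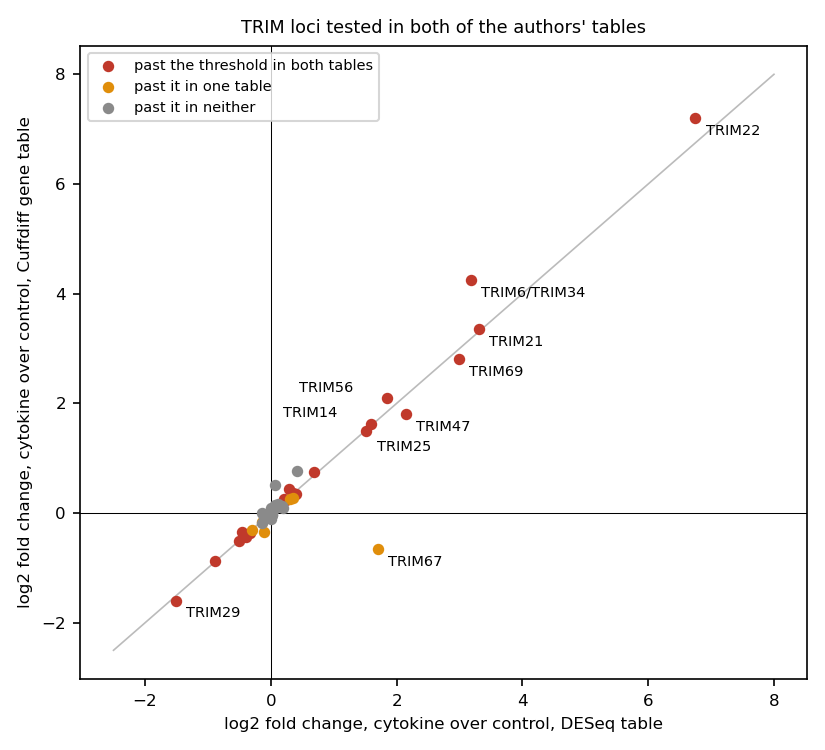
Log2 fold changes of cytokine over control in the authors' deposited DESeq table (horizontal) and Cuffdiff gene table (vertical) are plotted for the 43 TRIM loci tested in both, with a line of equal values. TRIM67 lies apart, at 1.70 on the horizontal and -0.65 on the vertical axis.

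The promoters of members were searched for letters bound by factors that act downstream of these cytokines. The window ran from 250 bases before to 50 bases after each RefSeq gene start (GRCh38.p14), and 56 of the 73 members had at least 1. The core of the interferon-stimulated response element (ISRE), GAAANNGAA on either strand, was in 8.11% of all 35116 RefSeq windows. A member was counted if any of its windows held the match, and some members, such as TRIM2, have several windows. Shares of members and the share of all windows are therefore not on the same scale. The ISRE core was in windows of 10 of the 56 members. These were 7 of the 19 genes in loci that rose, 1 of the 4 in loci that fell, 1 of the 18 in loci that did not pass and 1 of the 15 in untested loci. The 7 are TRIM5, TRIM14, TRIM21, TRIM26, TRIM34, TRIM44 and TRIM69. The gamma-activated site (GAS) TTCNNNGAA was in 7.66% of all windows and in those of 12 members. Of genes in loci that rose 2 of 19 held it, TRIM40 and TRIM46, with 1 of 4 in loci that fell, 3 of 18 in loci that did not pass and 6 of 15 in untested loci. An NF-κB consensus was in 5.91% of all windows and in those of 2 members, TRIM31, which rose, and TRIM2, which fell. A match is a description of letters, not of a bound site. The ISRE matches of 6 genes in loci that rose are shown because they differ in place and number, with the match in capitals, read 5′ to 3′ along the gene's strand. A match that begins with TTC is the core on the other strand.
TRIM21, chr11:4393664-4393692, minus strand: ctgagcgGAAACTGAAAGTGAAataggga
TRIM14, chr9:98119229-98119257, minus strand: cggccgaggtTTCGGTTTCccttgggagc
TRIM34, chr11:5624902-5624930, plus strand: ccccaaaaatTTCACTTTCatttctcagg
TRIM69, chr15:44736457-44736485, plus strand: taatgagggtTTCTCTTTCtcttaagcaa
TRIM5, chr11:5685082-5685110, minus strand: tagtttatctTTCACTTTCctgccctgag
TRIM26, chr6:30213578-30213606, minus strand: gcctgatTTCAGTTTCCATTTCgctgccc
TRIM40, a GAS match, chr6:30136663-30136691, plus strand: cgtgcaaataTTCACTGAAagctgtcaag
TRIM31, an NF-κB match, chr6:30113205-30113233, minus strand: gagctgattGGGAAATCCCCcataagtgg

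The capitals shown for TRIM31 hold 2 overlapping NF-κB matches, 1 on each strand. TRIM21 and TRIM26 each hold 2 overlapping ISRE matches. Those of TRIM21 run from base 18 to base 32 of the transcribed part, the start counted as base 1, and those of TRIM26 from 193 to 179 bases before the start. The matches of TRIM14 and TRIM5 lie 25 to 17 and 26 to 18 bases before the start, and TRIM34 and TRIM5 share the letters TTCACTTTC. For TRIM69 the RefSeq window belongs to the downstream start of the leading coding TRIM69-201, with its match 61 to 53 bases before it. A window of the same length was therefore also read from hg38 around the annotated start of the leading TRIM69-207, and it holds an ISRE match 157 to 149 bases and a GAS match 182 to 174 bases before that start.
TRIM69-207, ISRE, chr15:44728834-44728862, plus strand: tggctttgaaGAAAGAGAAaccaggacgg
TRIM69-207, GAS, chr15:44728809-44728837, plus strand: cccttcccctTTCTCGGAAagcagctggc
No such extra window was read for other members. TRIM25, TRIM38, TRIM47, TRIM56 and TRIM67 rose by 2-fold or more with none of these letters in their RefSeq windows, which says nothing of the factors themselves. The window of TRIM6, which shares its locus with TRIM34, held none either. TRIM22 had no RefSeq window.

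Genes that work with TRIM proteins were read from lists chosen for their function, with earlier results of these data known. The shares of all tested loci set beside their counts are not matched for read counts. Of 8 partners of TRIM25 and TRIM14 in RNA sensing, 5 rose and 1 fell, where 18.0% of all tested loci rose and 19.7% fell. Their median log2 fold change was 0.71 in the authors' deposited DESeq table. ISG15, the ubiquitin-like protein that TRIM25 can attach, averaged 2359 normalized counts with cytokines and 11.4 in control cells (log2 fold change 7.69 ± 0.25, adjusted p = 2.69e-211 in the authors' deposited DESeq table). IFIH1, the RNA sensor MDA5, averaged 9219 normalized counts with cytokines and 1025 in control cells (3.17 ± 0.04, adjusted p listed as 0 in the authors' deposited DESeq table). DDX58, the sensor RIG-I that TRIM25 modifies, in a locus with TOPORS, rose less, with 4604 normalized counts with cytokines and 2322 in control cells (0.99 ± 0.04, adjusted p = 4.75e-144 in the authors' deposited DESeq table). MAVS and KHNYN did not pass, and RNF135, another ligase of RIG-I, fell by 0.41 on the log2 scale (adjusted p = 0.00013 in the authors' deposited DESeq table). RNF135 did not pass in the authors' Cuffdiff gene table (q = 0.317).

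Of 11 E2 enzymes and ubiquitin genes used by TRIM ligases, 4 rose and 6 fell in the authors' deposited DESeq table, where 18.0% of all tested loci rose and 19.7% fell. The list's median was -0.09, close to the -0.06 over all tested loci of at least 1000 counts. UBE2L6, the E2 of ISG15, rose most, with 6029 normalized counts with cytokines and 2.86 in control cells (log2 fold change 11.04 ± 0.48, adjusted p = 1.41e-114 in the authors' deposited DESeq table). UBE2N and its partner UBE2V2, which together build ubiquitin chains used in innate signalling, fell by 0.26 and 0.25 (log2) in the authors' deposited DESeq table. In the authors' Cuffdiff gene table UBE2V2 passed (q = 0.0271) and UBE2N did not (q = 0.218). UBA1, the ubiquitin E1 and the most counted gene of the list, averaged 28837 normalized counts with cytokines and 30799 in control cells (log2 fold change -0.09 ± 0.02, adjusted p = 5.84e-06 in the authors' deposited DESeq table). UBA1 did not pass in the authors' Cuffdiff gene table (q = 0.594).

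In the list of silencing genes read with TRIM28, 8 of 11 tested genes fell, 2 rose and 1 did not pass, against 19.7% lower and 18.0% higher of all tested loci. The median was -0.20 in the authors' deposited DESeq table, against -0.06 over all tested loci of at least 1000 counts. The least counted of the tested genes, SETDB1, averaged 1743 normalized counts over all libraries. Small changes could therefore pass, such as CHD3 at -0.08. This list is wider than the TRIM28 complex itself, as it includes MORC2, which fell, MPHOSPH8, which rose, and PPHLN1, which did not pass. TASOR, also listed, was not matched. CBX5, the heterochromatin protein HP1α that TRIM28 binds, averaged 13993 normalized counts with cytokines and 27357 in control cells (log2 fold change -0.97 ± 0.02, adjusted p listed as 0 in the authors' deposited DESeq table). CHD4, a remodelling ATPase and the most counted gene of the list by its mean over all libraries, averaged 22972 normalized counts with cytokines and 24943 in control cells (-0.12 ± 0.02, adjusted p = 4.10e-10 in the authors' deposited DESeq table). SETDB1, the histone methyltransferase of the complex, rose by 0.17 ± 0.05 (adjusted p = 0.0011 in the authors' deposited DESeq table). In the authors' Cuffdiff gene table CBX5 passed (q = 0.000232), and CHD4 (q = 0.801) and SETDB1 (q = 0.623) did not.

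Of 8 effectors of TRIM5 and TRIM21, 5 rose and 1 fell, where 18.0% of all tested loci rose and 19.7% fell. Their median was 0.22 in the authors' deposited DESeq table. PPIA, the cyclophilin A that binds retroviral capsids, fell, with 25324 normalized counts with cytokines and 33417 in control cells (log2 fold change -0.40 ± 0.02, adjusted p = 3.64e-92 in the authors' deposited DESeq table). VCP, the unfoldase needed for neutralization through TRIM21, averaged 19093 normalized counts with cytokines and 15464 in control cells (0.30 ± 0.02, adjusted p = 2.04e-42 in the authors' deposited DESeq table). Among 7 tested TRIM proteins that carry another symbol, 2 rose and 2 fell, against 18.0% higher and 19.7% lower of all tested loci, with a median of 0.04. PML, the scaffold of nuclear bodies, averaged 7765 normalized counts with cytokines and 1430 in control cells (2.44 ± 0.03, adjusted p listed as 0 in the authors' deposited DESeq table), and MID2 rose by 0.50. MID1, mutated in Opitz syndrome, fell by 0.69 on the log2 scale, with 1079 normalized counts with cytokines and 1743 in control cells, and RNF135 fell as given above.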

How the data were processed

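Poly(A) RNA of 6 EndoC-βH1 libraries was sequenced from directional libraries, per the labels' protocols. Per the submitters' processing notes, hg38 was the build, STAR 2.5.2b and StringTie are named, and Cuffdiff 2.2.1 and DESeq made the comparisons. The sources used here name no read counter or strand setting. The signal in the authors' deposited DESeq tables is the mean over libraries of counts divided by size factors. Their log2 fold changes and SE, the score (log2 fold change over SE) and the p-values are as deposited. The FPKM in the deposited Cuffdiff tables are group values, with ratios as log2 fold changes and q-values. Loci are StringTie bundles and can hold several genes, and a locus value belongs to all of them.

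Group means were solved from each locus's deposited mean and fold change. Adjusted p-values run over all tested loci, and rebuilding them by Benjamini-Hochberg differed by at most 1.53e-15. A call is an adjusted p under 0.05. Coordinates and transcript types come from GENCODE 44, promoters from RefSeq. Levels, fold changes, SE and adjusted p are given in full for called members past 0.5 in log2 fold change and for the 10 most counted members, and for listed genes past 1 or the 2 most counted of a list. Depth per library is not in the tables, so no counting interval is given. Members, lists and tests were chosen with earlier results of these data known. Python 3.11.15 and pandas 2.3.3 were used, and the re-centring was checked on simulated data.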

Additional observations from a re-analysis of the deposited data

How the results depend on the processing

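The number of TRIM loci that rose was 14 to 27, and of those that fell 7 to 9, when calls came from the Cuffdiff table, a threshold of 0.01, re-centring on loci of at least 1000 counts, another filter on low counts, or loci of 1 symbol, against 21 and 8. The Cuffdiff table tested 43 TRIM loci, and TRIM26, TRIM31, TRIM38 and TRIM40, which rose in the DESeq table, had no test there. Of the 52 loci tested in the DESeq table, 37 hold 1 symbol. With a 2-fold minimum, 12 rose and 1 fell. TRIM67 turned round in the Cuffdiff table, with a log2 fold change of -0.65, and with 0.1 or 1 added to its FPKM, at -0.57 and -0.27; beyond the unnamed transcript, the cause was not tested. Of 52 log2 fold changes, re-centring brought 6 past the threshold (TRIM4, TRIM42, the TRIM50/TRIM74 locus, TRIM66, TRIM68 and TRIM73) and took 1, TRIM23, below it. Values near 0 that were not called in either case also changed sign: TRIM13 at 0.052, TRIM33 at 0.0088 and TRIM39 at 0.046 after re-centring, and TRIM7 at 0.0064, TRIM16 at -0.040 and TRIM35 at -0.042 in the Cuffdiff table. Of 43 log2 fold changes in the Cuffdiff table, 34 kept direction and side of the threshold, TRIM59 gained its call, and TRIM2, TRIM23, TRIM44 and TRIM52 lost theirs.

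With a 2-fold minimum the lists kept these calls: COS box 1 higher and 0 lower, chromosome 6 3 higher, chromatin 0 lower, NHL 0 lower, membrane 0 lower, other symbols 1 higher and 0 lower, RNA-sensing partners 2 higher and 0 lower, E2 and ubiquitin genes 1 higher and 0 lower, the TRIM28 list 0 in both directions and the effectors of TRIM5 and TRIM21 0 in both directions. In the Cuffdiff table they were NHL 0 lower, COS box 1 higher, chromosome 6 1 higher, other symbols 1 lower, RNA-sensing partners 0 lower, E2 and ubiquitin genes 1 lower, and the TRIM28 list 0 higher and 4 lower. For chromosome 6, TRIM26, TRIM31, TRIM38 and TRIM40 had no test in that table, so their calls could not appear there. In loci of 1 symbol they were antiviral 6 higher, chromatin 1 lower, chromosome 11 cluster 0 higher, other symbols 0 lower, RNA-sensing partners 0 lower, and E2 and ubiquitin genes 3 lower. Re-centring gave chromatin 1 higher and membrane 1 lower, and the 0.01 threshold membrane 1 lower. The leading transcript differed between groups in 3 genes, and in 2 over transcripts of at least 0.1 FPKM.

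No paired analysis was possible because the tables hold no values per library, and for the same reason no library was left out in turn. For loci with few reads, such as TRIM40, TRIM31, TRIM38 and TRIM47, depth limits the precision of the fold.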

Other observations

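Outside the rule, 39 loci hold a symbol that begins with TRIM, mostly pseudogenes and antisense genes, and 37 of them hold no member. Reads were present in 23 and an adjusted p in 4. Of these 4, the antisense gene TRIM52-AS1, in a locus with CTC-338M12.4, averaged 486 normalized counts with cytokines and 402 in control cells (log2 fold change 0.27 ± 0.09, adjusted p = 0.00672 in the authors' deposited DESeq table), and was not called in the authors' Cuffdiff table (q = 0.813). TRIM52 itself, on the opposite strand, averaged 180 normalized counts with cytokines and 141 in control cells (0.35 ± 0.14, adjusted p = 0.0402 in the authors' deposited DESeq table). TRIM31-AS1 had reads but no adjusted p.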
